A study of Mus musculus with 6 samples.

Results

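The 91 genes described here encode the Golgi enzymes that build, branch and cap the sugar chains of proteins and lipids, and they were taken from the 38924 genes of the series by their names. A gene belongs when its name starts with St3gal, St6gal, St6galnac, St8sia, Galnt, B3gnt, B4galt, Mgat, Chst or Gcnt, or with Fut and a digit. By class these are sialyltransferases (6 St3gal, 2 St6gal, 6 St6galnac and 6 St8sia), 19 Galnt, 5 Gcnt, 10 B3gnt, 7 B4galt, 8 Mgat and 8 Fut genes, and 14 carbohydrate sulfotransferases (Chst). They were compared between 3 samples of ILT3+ and 3 samples of ILT3- CD4+CD25+ T cells. ILT3, encoded by Lilrb4 in the mouse, is an inhibitory receptor of the immunoglobulin superfamily. The mice were wild type (WT), untreated, of both sexes, aged 10 to 16 weeks and described as syngeneic, and the cells came from their spleens and mesenteric lymph nodes. Both groups were enriched on magnetic columns and sorted as CD4+ CD25+, and the labels name no difference between them other than the ILT3 gate. Nothing in the labels says whether samples came from separate animals or from pools. The p-values therefore rest on the differences among the 3 samples of a group, and these may be technical.

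Sugar chains on cell surface proteins are finished in the Golgi by enzymes that act one after another. Galnt enzymes start O-linked chains by adding N-acetylgalactosamine (GalNAc) to serine or threonine, Gcnt enzymes branch them, and Mgat enzymes open the branches of N-linked chains. B3gnt and B4galt enzymes lengthen the branches with N-acetylglucosamine (GlcNAc) and galactose. Sialyltransferases and fucosyltransferases then cap the chains, and sulfotransferases add sulfate to them or to glycosaminoglycans such as chondroitin sulfate. In T cells these steps are known to set binding to selectins, galectins and sialic acid receptors (Siglecs).

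Of the 91 genes, 5 had no read in any library (St8sia3, Gcnt3, Chst4, Fut1 and Galnt4) and 56 passed the filter on low counts (about 0.839 CPM in 3 libraries) and were tested. Of the 56, 46 passed it in both groups. St6galnac2, Gcnt2, Chst1, Fut4 and Fut7 passed only through the ILT3+ libraries, B3gnt2 and Galnt14 only through the ILT3- libraries, and B3gnt9, Galnt18 and Galnt3 through libraries of both groups together. For genes that passed through 1 group only the filter itself favoured a difference, so counts over the tested members are descriptions. A gene is called when edgeR's quasi-likelihood test gives an adjusted p under 0.05 over all 13694 tested genes. Levels are CPM, the reads of a gene (introns included) scaled to library size, and log2 fold changes are ILT3+ over ILT3-. Levels of different genes are set side by side only as RPKM over exons (exon RPKM), which divides exon reads by exon length and library size.

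In the ILT3+ cells 4 members were called higher, beside 1.96% of all tested genes, and 2 lower, beside 0.343%. Chst1, Chst11, Fut4 and Gcnt1 rose, and the α2,8-sialyltransferases St8sia1 and St8sia6 fell. These are 6 of 56 tested members, or 10.7%, beside 2.31% of all tested genes (316, of which 269 were higher and 47 lower). An unadjusted p under 0.05 was found for 27 members, 16 higher and 11 lower, beside 13.8% of all tested genes. The 3 values of 1 group lay wholly above or below those of the other for 28 of 56 members, 16 higher (all tested genes 11.4%) and 12 lower (8.76%), beside 20.2% in either direction. The median log2 fold change was 0.14 over the tested members and -0.02 over all tested genes. With the sample number as a block in the fit, 12 members were called, beside 6.81% of all tested genes, 6 of them higher (all genes 4.18%) and 6 lower (all genes 2.62%). The added genes were Chst2 and Mgat4a, higher, and St3gal4, St6gal1, Galnt6 and Galnt10, lower. On exon reads alone 51 members could be tested and 5 were called, beside 2.05% of all genes tested there, 3 of them higher (all genes 1.79%) and 2 lower (all genes 0.251%). Chst11 was the called gene that this fit did not call. DESeq2 called 14 members, beside 6.94% of all tested genes, 10 of them higher (all genes 5.09%) and 4 lower (all genes 1.85%). Without ILT3- sample 3 or without ILT3+ sample 3, 0 members were called, and without ILT3- sample 2 or ILT3+ sample 2 the call of Chst11 alone was left.

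**Figure D1:**
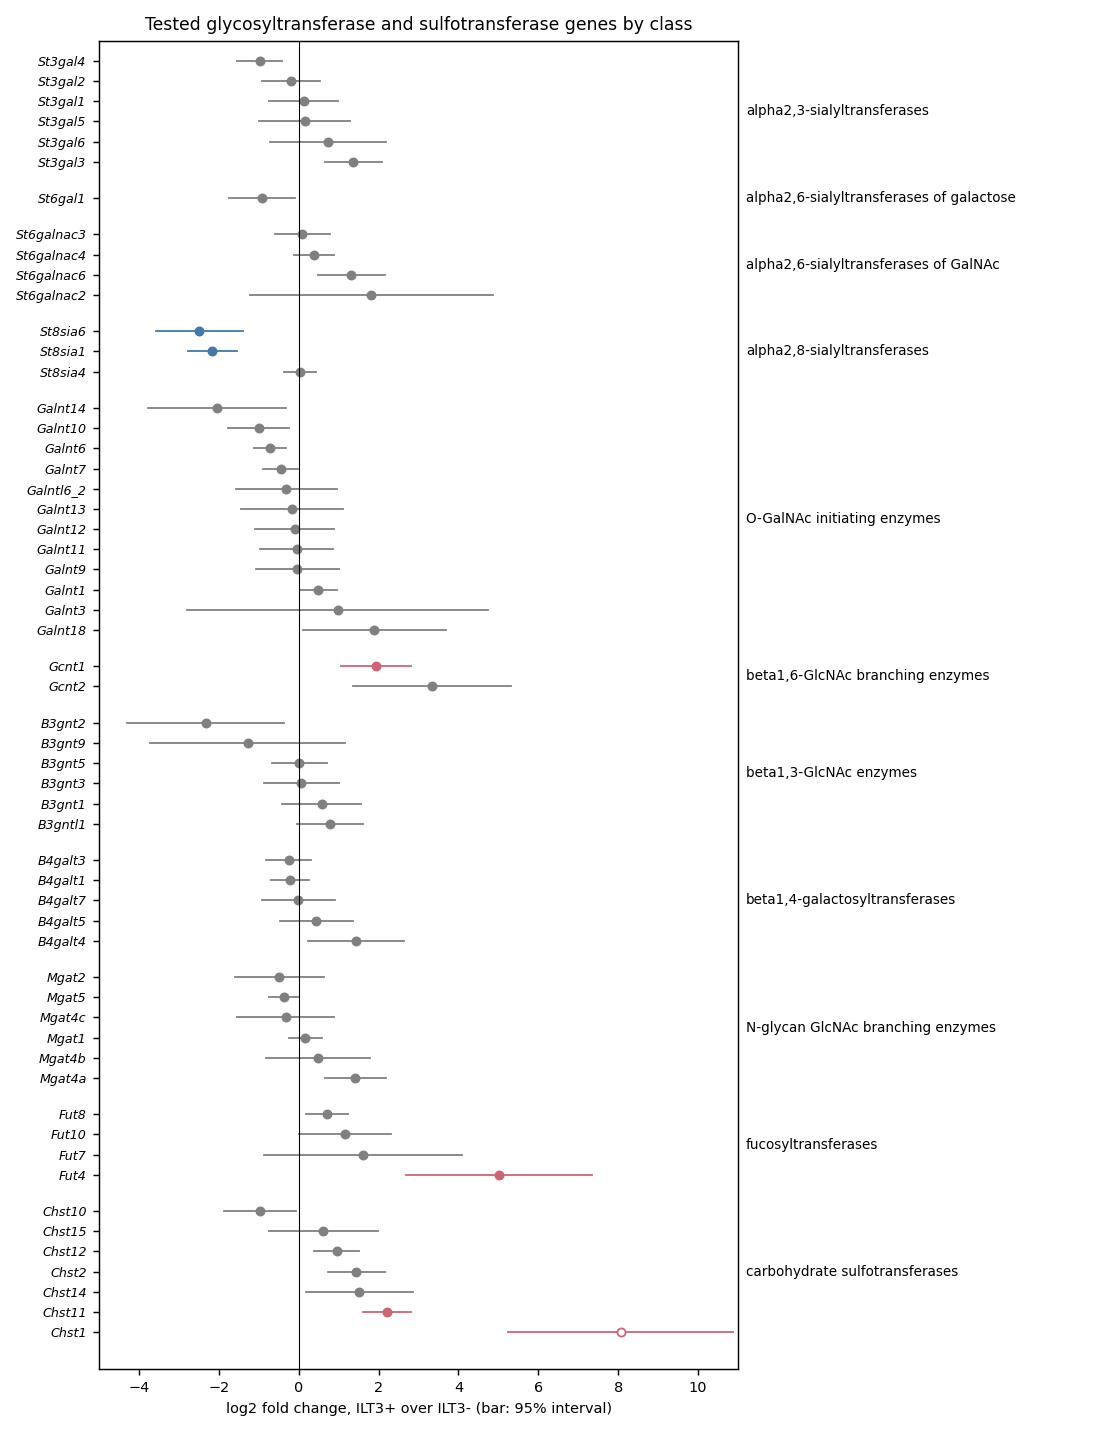
Log2 fold change of ILT3+ over ILT3- (x axis) for the 56 tested genes, grouped by enzyme class, with 95% intervals from edgeR as bars, red for genes called higher, blue for genes called lower, grey for genes not called and an open circle for Chst1, whose fitted value is no estimate of size since it had no read in ILT3- cells. The 2 blue genes are both α2,8-sialyltransferases, and the red genes lie among the Gcnt, Fut and Chst classes.

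The libraries held 9334370 to 13648274 reads over genes, of which 24.0% to 28.3% were intronic, and 3 reads correspond to 0.218 to 0.360 CPM. The sort is visible in Lilrb4, at 4.46 ± 1.29 CPM in ILT3- and 332 ± 65.8 in ILT3+ cells (SD, n = 3 each). Cd3e, part of the T cell receptor complex, was at 804 ± 162 and 706 ± 123 CPM and Foxp3, the regulatory T cell factor, at 862 ± 233 and 861 ± 127. Of the Foxp3 reads 19.0% were counted as unique. Some lists of markers of other cells had higher sums in ILT3+ libraries, and others did not. The 14 dendritic cell markers summed to 168 to 199 CPM in ILT3- and 1762 to 2956 in ILT3+ libraries, and 8 of 11 tested were called higher (Itgax, Cd209a and Ccl22 had no read in ILT3- cells, Clec9a and Cd209a none in ILT3+ cells). The 17 monocyte and macrophage markers summed to 99.9 to 169 CPM and 264 to 1436, with 2 of 11 tested called higher. ILT3+ sample 1 held the 1436, and Csf1r was at 266 CPM there but at 2.25 and 0.399 in ILT3+ samples 2 and 3. Erythroid and platelet markers summed to 5.42 to 13.5 and 97.2 to 290 CPM (3 of 6 tested called higher), natural killer and innate lymphoid markers to 41.6 to 48.1 and 208 to 506 (2 of 3), and the 9 B cell markers found to 358 to 1020 and 852 to 1772 (0 of 8). Most of the natural killer and innate lymphoid sum was Kit (means 19.0 and 179 CPM) and Il1rl1 (18.0 and 167). Ncr1 and Klrb1c were at 5.82 and 23.9 CPM in ILT3+ sample 1 and at or under 0.638 in samples 2 and 3. Eomes had means of 2.63 CPM in ILT3- and 0.442 in ILT3+ cells. The part of such RNA in the enzyme levels below was not tested. In bulk samples a change in the number of cells that use a gene and a change in RNA per cell cannot be told apart.

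For the called genes the 250 bases before the RefSeq start (GRCm38.p6) are printed where they end 0 or 1 bases before the deposited gene model. The start regions of genes that fell and rose can so be set side by side. They were searched on both strands for TCF/LEF (CTTTGA), RUNX (TGTGGT), AP-1 (TGANTCA), FOX (GTAAACA), T-box (TCACAC), GC box (GGGCGG) and ETS (CCGGAA) letters, which overlap in none of these windows. Capitals mark the matches, and each sequence reads 5′ to 3′ on the gene's strand.
St8sia1 (chr6:142964453-142964702, minus strand): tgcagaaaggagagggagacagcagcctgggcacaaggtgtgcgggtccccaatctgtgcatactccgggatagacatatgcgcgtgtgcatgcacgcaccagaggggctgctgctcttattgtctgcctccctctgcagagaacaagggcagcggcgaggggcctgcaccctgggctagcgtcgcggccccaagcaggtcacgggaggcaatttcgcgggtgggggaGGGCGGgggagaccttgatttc
Gcnt1 (chr19:17356668-17356917, minus strand): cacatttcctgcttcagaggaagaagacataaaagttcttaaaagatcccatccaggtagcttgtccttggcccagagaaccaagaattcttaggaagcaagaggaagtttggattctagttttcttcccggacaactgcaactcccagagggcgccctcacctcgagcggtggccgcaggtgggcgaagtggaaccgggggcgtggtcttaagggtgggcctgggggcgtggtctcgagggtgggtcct
Chst11 (chr10:82985247-82985496, plus strand): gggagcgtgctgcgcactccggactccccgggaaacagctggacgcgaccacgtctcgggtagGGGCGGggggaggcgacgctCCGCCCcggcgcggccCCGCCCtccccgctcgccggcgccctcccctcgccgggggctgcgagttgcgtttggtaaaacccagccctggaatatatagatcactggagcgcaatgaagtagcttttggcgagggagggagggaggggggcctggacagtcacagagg
Fut4 (chr9:14752123-14752372, minus strand): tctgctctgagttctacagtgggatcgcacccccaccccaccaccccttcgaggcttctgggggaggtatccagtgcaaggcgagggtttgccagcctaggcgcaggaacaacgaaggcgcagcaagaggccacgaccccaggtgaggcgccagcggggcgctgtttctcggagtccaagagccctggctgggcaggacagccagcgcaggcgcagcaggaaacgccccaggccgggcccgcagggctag
The Chst11 window holds 3 GC boxes and the St8sia1 window 1, a motif found in 32.7% of the 32851 RefSeq windows of this length. The Gcnt1 and Fut4 windows shown hold none of the 7 motifs. RefSeq gives Gcnt1 further starts, whose windows are not printed. One of these windows, 16177 bases before the deposited gene model, holds a T-box match, a motif found in 12.3% of all windows. The St8sia6 window, which lies inside the deposited gene model and is not printed, holds a TCF/LEF match (13.8% of all windows). The Chst1 window also lies inside its gene model, is not printed and holds none of the 7 motifs. GC content was 63.6% for St8sia1, 55.6% for Gcnt1, 70.0% for Chst11 and 67.6% for Fut4, beside a median of 52.4% over all windows. In the windows not printed it was 70.8% for St8sia6, 51.6% for Chst1, and 40.4% and 51.6% for the further Gcnt1 starts. These matches are letters in a window, and binding was not measured.

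Among the α2,8-sialyltransferases, which attach sialic acid to sialic acid, 2 of 3 tested genes fell (all tested genes 0.343%) and the third did not pass the test. St8sia1, the GD3 ganglioside synthase (chr6:142821545-142964452), was at 67.0, 126 and 109 CPM in ILT3- samples 1 to 3 and at 24.0, 21.7 and 21.5 in ILT3+ samples 1 to 3. Every ILT3+ value lay below every ILT3- value, and the ILT3+ values were close together. The means were 100 ± 30.1 and 22.4 ± 1.41 CPM (SD, n = 3 each), so that expression fell by 2.17 in log2 units (adjusted p = 0.0105, SE 0.27, edgeR). St8sia6, which adds a second sialic acid mainly on O-glycans (chr2:13651020-13793808), was at 67.5, 130 and 60.8 CPM in ILT3- and at 19.9, 18.9 and 6.94 in ILT3+ samples. Here too the groups did not overlap, with ILT3- sample 2 the highest and ILT3+ sample 3 the lowest. The means were 86.1 ± 38.1 and 15.2 ± 7.21 CPM, and expression fell by 2.5 (adjusted p = 0.0397, SE 0.47). On exon reads the log2 fold changes were -2.07 for St8sia1 (adjusted p = 0.0232) and -3.03 for St8sia6 (adjusted p = 0.0269). St8sia4, the polysialyltransferase, was at 160, 170 and 134 CPM in ILT3- and 170, 160 and 145 in ILT3+ samples. Its groups overlapped, and the log2 fold change of 0.03 had a 95% interval of -0.36 to 0.43. Its sign was negative without ILT3- sample 3 (-0.06) or ILT3+ sample 1 (-0.02).

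The makeup of the α2,8 class differed with these falls. St8sia4 held 59.8 ± 7.62% of the class's summed exon RPKM in ILT3- and 90.0 ± 3.39% in ILT3+ cells. St8sia1 held 20.7 ± 5.26% and 6.60 ± 1.73%, and St8sia6 19.6 ± 5.81% and 3.36 ± 1.66%. Neither group overlapped the other for any of these 3 shares, which were not tested. Summed exon RPKM of the class was 41.2 ± 7.68 in ILT3- and 30.3 ± 3.20 in ILT3+ cells. St8sia2 had 3 reads in ILT3- and 6 in ILT3+ samples, St8sia5 had 8 and 4, and St8sia3 had none. Of the St8sia1 reads 73.0% were counted as unique, and its model overlaps the predicted gene Gm7457. Without ILT3- sample 2 or 3 or ILT3+ sample 2 or 3, the adjusted p of St8sia1 was between 0.0511 and 0.0631. For St8sia6 it was between 0.0626 and 0.152 without any one of these or without ILT3+ sample 1.

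**Figure D2:**
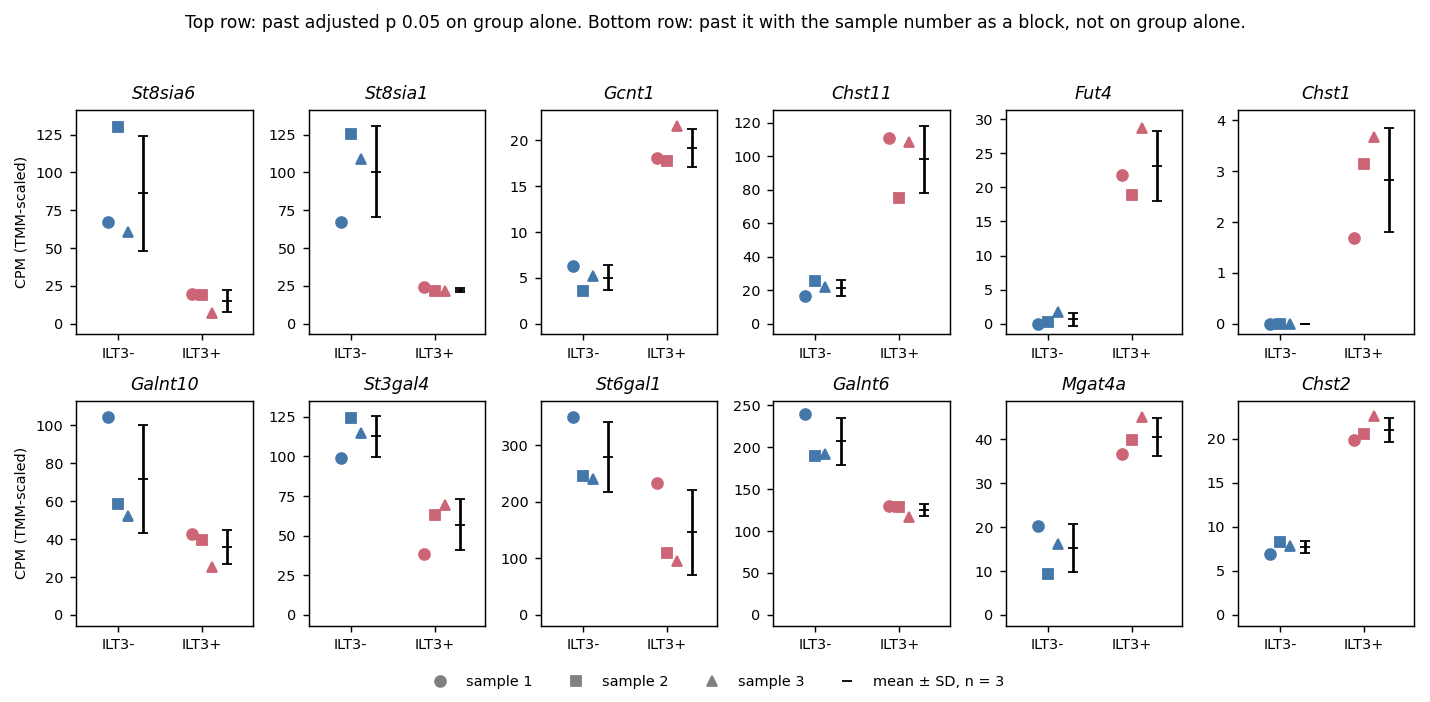
CPM (y axes, 1 scale per gene) of 12 genes in each ILT3- (blue) and ILT3+ (red) sample, with mean and SD (n = 3) as bars and the sample number as the marker. The upper genes passed adjusted p 0.05 on group alone and the lower ones with the sample number as a block, and in all 12 panels the groups do not overlap.

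Among enzymes that place sialic acid on galactose, no gene was called on group alone. Of the 6 St3gal genes, which make the α2,3 linkage, all were tested and edgeR called 0, with 2 at an unadjusted p under 0.05. DESeq2 called 2, St3gal3 higher and St3gal4 lower, and limma voom called 0. St3gal4, which caps N-glycans and helps make sialyl Lewis X, was at 98.8, 124 and 115 CPM in ILT3- and 38.6, 62.7 and 69.3 in ILT3+ samples. The ILT3+ values were all lower, and the log2 fold change was -0.98 (adjusted p = 0.104 on group alone and 0.0207 with the block, SE 0.25). St3gal3, which acts on N-glycan branches, was at 13.1, 20.4 and 14.0 CPM in ILT3- and 54.3, 35.1 and 33.6 in ILT3+ samples. The ILT3+ values were all higher, but the log2 fold change of 1.37 (SE 0.31) had an adjusted p of 0.0739, and 0.0509 with the block. Of its reads 80.0% were intronic, and its model overlaps that of 9530034E10Rik. St3gal1, the enzyme that caps core 1 O-glycans, had overlapping groups and a log2 fold change of 0.12 (95% interval -0.74 to 0.98), negative without ILT3- sample 1 (-0.07) or ILT3+ sample 2 (-0.03).

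St3gal4 was the main gene of its class by exon RPKM, with 71.4 ± 4.98% of the class sum in ILT3- and 52.7 ± 12.3% in ILT3+ cells. St3gal3 held 3.94 ± 0.384% and 14.1 ± 7.0%. The class sum was 39.9 ± 2.66 in ILT3- and 29.2 ± 2.33 in ILT3+ cells, and no library of one group reached those of the other. St6gal1, the enzyme of α2,6-linked sialic acid on N-glycans that CD22 recognizes, was at 350, 246 and 240 CPM in ILT3- and 233, 109 and 96.1 in ILT3+ samples. Sample 1 was the highest in both groups, and ILT3+ sample 1 lay just below the lowest ILT3- sample. The log2 fold change was -0.93 (adjusted p = 0.293, SE 0.36) and, with the block, -1.02 (adjusted p = 0.0197). It was -1.44 (adjusted p = 0.0397) when ILT3+ sample 1 was left out. St6gal2 had 6 reads in each group and was not tested.

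The St6galnac genes, which put sialic acid on GalNAc or on the inner part of O-glycans and gangliosides, gave 0 calls among 4 tested (edgeR, 1 at an unadjusted p under 0.05, DESeq2 1 higher, limma voom 0). That one was St6galnac6, linked to α-series gangliosides, at 8.77, 6.91 and 6.47 CPM in ILT3- and 21.5, 19.9 and 13.7 in ILT3+ samples. The groups did not overlap, and the log2 fold change was 1.32 (adjusted p = 0.130, SE 0.36). St6galnac4, which makes the disialylated core 1 structure, had a log2 fold change of 0.38 (adjusted p = 0.513). St6galnac3 was at 275 to 629 CPM in ILT3- and 407 to 558 in ILT3+ libraries with a log2 fold change of 0.09 (adjusted p = 0.943), and 98.0% of its reads were intronic. This value was negative without ILT3- sample 1 (-0.17) or ILT3+ sample 3 (-0.02).

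Several members of low count were high in ILT3+ sample 1, the library with most macrophage marker reads, and these were picked after their values were seen. St6galnac2 was at 25.1 CPM there and at 2.65 and 3.19 in the other ILT3+ samples. St6galnac1, the sialyl-Tn synthase, had 2.06 CPM there beside 0.161 and 0.0798. B4galt6, a lactosylceramide synthase, had 6.57 CPM there beside 0.643 and 0.239. In ILT3- samples St6galnac2 ranged from 0 to 5.23 CPM, St6galnac1 had no read and B4galt6 ranged from 0.12 to 0.629. None of these 3 genes was called, and St6galnac1 and B4galt6 were below the filter.

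Among the O-glycan enzymes the branching gene Gcnt1 rose, while no initiating enzyme was called on group alone. Gcnt1, the core 2 branching enzyme of leukocytes that opens the arm on which selectin ligands are built (chr19:17326141-17356667), was at 6.25, 3.54 and 5.23 CPM in ILT3- and 18.1, 17.8 and 21.5 in ILT3+ samples. All ILT3+ values were well above all ILT3- values, and both groups were narrow. The means were 5.0 ± 1.37 and 19.1 ± 2.09 CPM (SD, n = 3 each), a log2 fold change of 1.94 (adjusted p = 0.0443, SE 0.38) and on exon reads of 1.99 (adjusted p = 0.0440). Gcnt2, which makes I-branches on lactosamine chains, was at 0.961, 0.157 and 2.47 CPM in ILT3- and 15.9, 12.6 and 8.54 in ILT3+ samples. Its groups did not overlap either, but the log2 fold change of 3.34 (SE 0.86) had an adjusted p of 0.110, and 0.0634 with the block. Gcnt2 passed the filter through the ILT3+ libraries only. Summed exon RPKM of the class was 0.957 ± 0.221 in ILT3- and 4.45 ± 0.478 in ILT3+ cells. Gcnt4 and Gcnt7 had 0 reads in ILT3- and 2 and 1 in ILT3+ samples. Without any one of the libraries other than ILT3- sample 1, the adjusted p of Gcnt1 was between 0.0733 and 0.190.

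Of the 19 Galnt genes 12 were tested and edgeR called 0, with 6 at an unadjusted p under 0.05 (DESeq2 called 1 lower, limma voom 0). Galnt6 had the highest exon RPKM of all 91 genes, 47.1 over the 6 samples. It was at 239, 190 and 192 CPM in ILT3- and 129, 128 and 117 in ILT3+ samples, so that the groups did not overlap. The log2 fold change was -0.73 (adjusted p = 0.0822 on group alone and 0.0220 with the block, SE 0.17). Galnt10, which prefers peptides that already bear GalNAc, was at 105, 58.4 and 52.1 CPM and at 42.6, 39.3 and 25.4. The log2 fold change was -1.0 (adjusted p = 0.220 on group alone and 0.0414 with the block, SE 0.33). Galnt7, of the same preference, was at 68.7, 93.7 and 84.9 CPM and at 59.1, 58.1 and 63.0, a log2 fold change of -0.46 (adjusted p = 0.329). Galnt1 went the other way, at 40.6, 39.8 and 49.0 CPM in ILT3- and 68.1, 60.2 and 53.5 in ILT3+ samples, a log2 fold change of 0.49 (adjusted p = 0.331). Of the 12 tested Galnt genes 5 had lower values in every ILT3+ sample than in any ILT3- sample (all tested genes 8.76%) and Galnt1 alone had higher ones (all tested genes 11.4%), while 6 overlapped. One of the 5 was Galnt14, which passed the filter through the ILT3- libraries only and had a log2 fold change of -2.05 (adjusted p = 0.268, SE 0.75). Galnt18 had one of 1.90 (adjusted p = 0.334). Summed exon RPKM of the Galnt class was 88.3 ± 10.8 in ILT3- and 61.9 ± 4.81 in ILT3+ cells, and the libraries of the groups did not overlap. Galnt6 held 67.0% of it in ILT3- and 56.4% in ILT3+ cells.

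Enzymes that lengthen the chains gave no call. The B3gnt genes (10, of which 6 tested) had 1 gene at an unadjusted p under 0.05, and the B4galt genes (7, of which 5 tested) 1 as well, and DESeq2 and limma voom called 0 in either class, as edgeR did. B4galt1, the main β1,4-galactosyltransferase, was at 144, 136 and 146 CPM in ILT3- and 90.0, 139 and 137 in ILT3+ samples. Only ILT3+ sample 1 stood apart, and the log2 fold change was -0.22 (95% interval -0.70 to 0.25). B4galt4 was at 3.60, 2.59 and 4.36 CPM and at 13.6, 9.65 and 5.27, with no overlap, a log2 fold change of 1.43 (SE 0.52) and an adjusted p of 0.266. B4galt7, which acts on the linker of glycosaminoglycans, had a log2 fold change of -0.01 (95% interval -0.92 to 0.91), which was positive without ILT3- sample 1 (0.15) or 2 (0.03) or ILT3+ sample 1 (0.31). B3gnt2, the polylactosamine synthase, had a log2 fold change of -2.33 (adjusted p = 0.267, SE 0.85), but 13.2% of its reads were counted as unique and 5 gene models overlap its own. B3gntl1 had a log2 fold change of 0.79 (adjusted p = 0.387), and its model overlaps Tbcd. The gene named B3gnt1 in the files lies where RefSeq places B4gat1, an enzyme of another linkage, and had a log2 fold change of 0.57 (adjusted p = 0.660).

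No N-glycan branching enzyme was called on group alone. Of 8 Mgat genes 6 were tested and edgeR called 0, with 2 at an unadjusted p under 0.05 (DESeq2 called 1 higher, limma voom 0). Mgat4a, which opens the β1,4 branch, was at 20.2, 9.27 and 16.2 CPM in ILT3- and 36.7, 39.7 and 45.1 in ILT3+ samples. All ILT3+ values were higher, with a log2 fold change of 1.41 (adjusted p = 0.0788 on group alone and 0.0380 with the block, SE 0.33). On exon reads its adjusted p was 0.316. Mgat5, which opens the β1,6 branch that carries galectin ligands, was at 575, 632 and 621 CPM and at 494, 441 and 474. The ILT3+ values were all lower by a small amount, the log2 fold change being -0.38 (adjusted p = 0.355, SE 0.16). Of Mgat5 reads 92.6% were intronic and 51.1% were counted as unique. Mgat1, which starts complex N-glycans, had a log2 fold change of 0.16 (95% interval -0.26 to 0.57). Summed exon RPKM of the class was 48.3 ± 4.16 in ILT3- and 44.1 ± 4.31 in ILT3+ cells, with overlapping libraries.

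Among the fucosyltransferases, 1 of 4 tested genes rose (all tested genes 1.96%). All 4 had higher values in every ILT3+ sample than in any ILT3- sample (all tested genes 11.4%), but Fut4 and Fut7 passed the filter through the ILT3+ libraries only, so that the filter itself partly fixed their separation. Fut4, an α1,3-fucosyltransferase that makes Lewis X structures (chr9:14748459-14752122), had 0, 3 and 24 reads in ILT3- and 233, 234 and 360 in ILT3+ samples. These correspond to 0, 0.236 and 1.74 CPM and to 21.9, 18.8 and 28.7 CPM. The gene was thus near the level of 3 reads in ILT3- samples 1 and 2 and clearly measured in all ILT3+ samples. The log2 fold change was 5.02 (adjusted p = 0.0496, SE 1.01), and 7.30 (adjusted p = 0.0512) without ILT3- sample 3, which held most of the ILT3- reads. Without ILT3- sample 2 or any one ILT3+ sample the adjusted p was between 0.0736 and 0.181. No Fut4 read was intronic and all were counted as unique. Fut7, which completes sialyl Lewis X for selectin binding and is named after its values were seen, was at 0, 5.50 and 4.36 CPM in ILT3- and 12.4, 10.5 and 7.58 in ILT3+ samples. Its adjusted p was 0.602.

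Fut8, the enzyme of core fucose on N-glycans, was at 57.1, 44.5 and 49.9 CPM in ILT3- and 61.1, 96.0 and 90.2 in ILT3+ samples. Its log2 fold change was 0.71 (adjusted p = 0.209, SE 0.23). Fut10 had one of 1.16 (adjusted p = 0.362, SE 0.50). Summed exon RPKM of the class was 12.9 ± 3.04 in ILT3- and 29.2 ± 3.35 in ILT3+ cells. Fut4 held 2.09% of this sum in ILT3- and 29.1% in ILT3+ cells, and Fut8 75.1% and 45.7%. Fut2 had 9 reads in ILT3- and 14 in ILT3+ samples, Fut9 had 11 and 16, and Fut11 had 26 and 20, and none of them was tested.

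**Figure D3:**
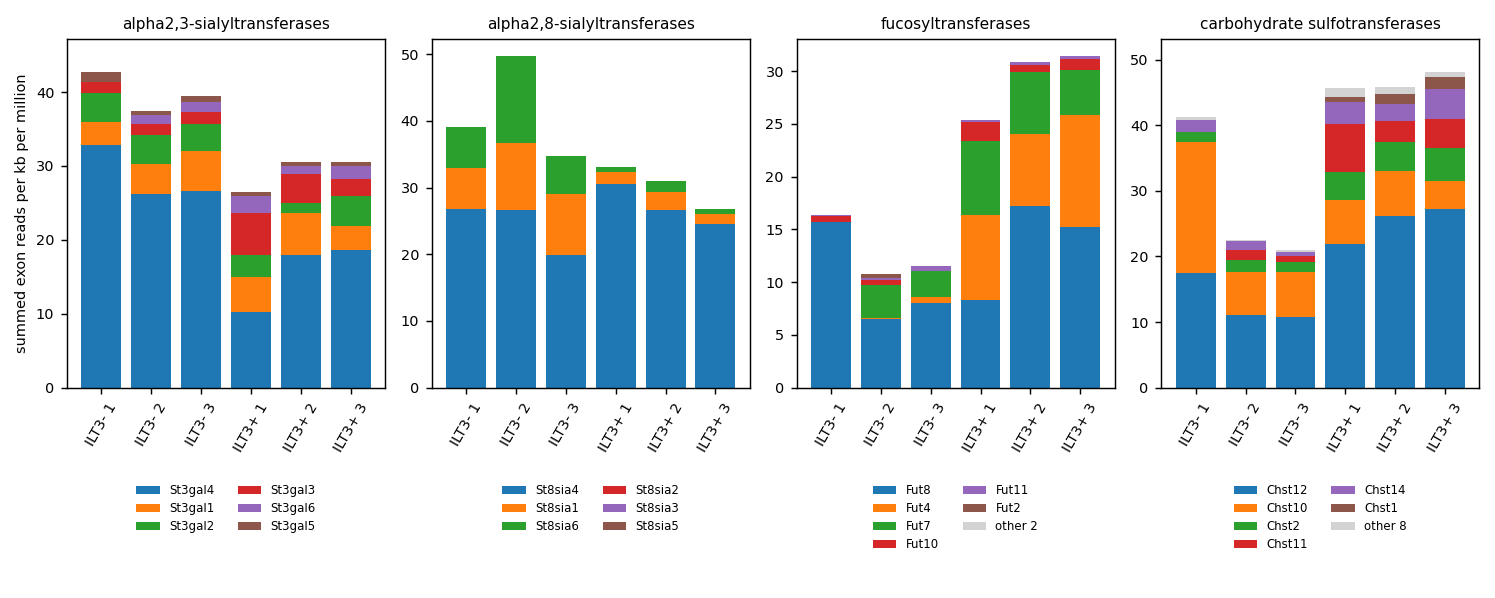
Exon RPKM (y axes), stacked by gene, in each of the 6 libraries for 4 enzyme classes. St8sia1 and St8sia6 shrink beside St8sia4 in ILT3+ libraries, and Fut4 appears beside Fut8, while Chst10 is a larger share of the sulfotransferases in ILT3- libraries.

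The sulfotransferases held 2 of the 4 genes that rose, among 7 tested of 14 (all tested genes 1.96%). Chst11, which sulfates chondroitin at the 4-O position of GalNAc (chr10:82985498-83195900), was at 16.3, 25.7 and 21.7 CPM in ILT3- and 111, 75.3 and 108 in ILT3+ samples. The lowest ILT3+ sample was well above the highest ILT3- sample. The means were 21.2 ± 4.69 and 98.1 ± 19.8 CPM (SD, n = 3 each), a log2 fold change of 2.20 (adjusted p = 0.00956, SE 0.26). Of Chst11 reads 80.1% were intronic. Its exon reads were 0, 79 and 49 in ILT3- and 322, 162 and 230 in ILT3+ samples, which did not overlap, but on exon reads the adjusted p was 0.312 (log2 fold change 2.61). Without ILT3- sample 3 or ILT3+ sample 3 the adjusted p on all reads was 0.0628 and 0.0504. Chst1, which sulfates galactose on keratan sulfate and lactosamine chains (chr2:92599707-92615250), had no read in any ILT3- sample and 18, 39 and 46 reads in ILT3+ samples. With 3 reads over the ILT3- group as the limit that a count of 0 allows, it was at least 33.5-fold higher (adjusted p = 0.0306). Chst1 passed the filter through the ILT3+ libraries only, so that the filter itself partly fixed its separation. At 1.69, 3.14 and 3.67 CPM it was low in ILT3+ cells too. Its adjusted p was between 0.109 and 0.135 without ILT3- sample 2 or 3 or ILT3+ sample 2 or 3. The call was also lost on unique exon reads.

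Other sulfotransferases had higher values in ILT3+ cells without a call on group alone. Chst2, a GlcNAc 6-O-sulfotransferase, was at 6.97, 8.33 and 7.85 CPM in ILT3- and 19.9, 20.5 and 22.6 in ILT3+ samples. Both groups were narrow and far apart, with a log2 fold change of 1.44 (adjusted p = 0.0616 on group alone and 0.0418 with the block, SE 0.31). Chst12, a second chondroitin 4-O-sulfotransferase, was at 31.6, 26.8 and 22.1 CPM and at 41.0, 56.1 and 57.9, a log2 fold change of 0.95 (adjusted p = 0.113, SE 0.25). Chst14, the dermatan 4-O-sulfotransferase, had a log2 fold change of 1.51 (adjusted p = 0.294, SE 0.58) at 1.93 ± 0.830 and 5.48 ± 1.49 CPM. Of the 7 tested sulfotransferases 5 had higher values in every ILT3+ sample than in any ILT3- sample (all tested genes 11.4%), among them Chst1, which passed the filter through the ILT3+ libraries only. Chst10, which makes the HNK-1 epitope, went the other way, at 49.9, 18.2 and 27.7 CPM and at 16.3, 17.2 and 15.3 (log2 fold change -0.97, SE 0.39, adjusted p = 0.319). It held 36.5% of the class's exon RPKM in ILT3- and 12.9% in ILT3+ cells. Summed exon RPKM of the class was 28.3 ± 11.3 and 46.5 ± 1.39, with the highest ILT3- library at 41.3 and the lowest ILT3+ library at 45.6.

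Macrophage marker reads were highest in ILT3+ sample 1. The sums of dendritic cell (2956 CPM), B cell (1772) and erythroid and platelet markers (290) were highest there too. That of natural killer and innate lymphoid markers was highest in ILT3+ sample 2 (506). Gcnt1, Fut4 and Chst1 were highest in ILT3+ sample 3. Chst11 was at 111 CPM in sample 1 and 108 in sample 3. Its exon reads were 322, 162 and 230 in ILT3+ samples 1 to 3, highest in sample 1. Without ILT3+ sample 1 the log2 fold changes were 1.98 for Gcnt1 (adjusted p = 0.0733), 5.06 for Fut4 (0.0736), 2.11 for Chst11 (0.0188) and, for Chst1 with no read in ILT3- cells, the adjusted p was 0.0498. The log2 fold changes of the genes called lower were -2.22 for St8sia1 (adjusted p = 0.0221) and -2.73 for St8sia6 (0.0626). The sum of the dendritic cell markers, most of it Cd74, H2-Aa, H2-Ab1 and H2-Eb1, was higher in all 3 ILT3+ libraries. The part of macrophage or dendritic cell RNA in these values was not tested.

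By level, the genes followed Galnt6 (exon RPKM 47.1 over the 6 samples) in the order St6gal1 (32.8), B4galt1 (26.8), St8sia4 (25.9), St3gal4 (22.1), Chst12 (19.1), St6galnac4 (17.6), Mgat1 (17.5), St6galnac3 (13.9), Mgat5 (13.7) and Fut8 (11.8). Of these 11 genes edgeR called 0 on group alone, 6 had an unadjusted p under 0.05, and DESeq2 called 3 (Galnt6, St3gal4 and Chst12). The genes called on group alone all lay below these levels.

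Outside the named families, 2 of 71 tested genes that supply, receive or remove these sugars were called (2.82%), beside 2.31% of all tested genes, a share near that background. Both were lower (all tested genes 0.343%). With the block 10 were called (14.1%, all tested genes 6.81%), 4 higher and 6 lower. Slc35d1, which carries UDP-glucuronic acid and UDP-GalNAc for chondroitin synthesis, was at 84.3, 129 and 113 CPM in ILT3- and 32.9, 32.9 and 44.1 in ILT3+ samples. The groups did not overlap, and expression fell by 1.57 in log2 units (adjusted p = 0.0172, SE 0.23). Its adjusted p was 0.0752 on exon reads and between 0.0599 and 0.0996 without ILT3- sample 2 or 3 or ILT3+ sample 2 or 3. It was the only call on group alone among 12 nucleotide sugar transporters. Slc35b4 had a log2 fold change of 1.03 (adjusted p = 0.0799 on group alone and 0.0461 with the block), DESeq2 called it higher (adjusted p = 0.00597), and 13.4% of its reads were counted as unique. Selp, the adhesion receptor P-selectin, had 374 reads in ILT3- and 10 in ILT3+ samples. It passed the filter through the ILT3- libraries only, so that the filter itself partly fixed its separation. It was at 20.1, 10.7 and 5.16 CPM and at 0.563, 0.161 and 0.160, a log2 fold change of -5.32 (adjusted p = 0.0212, SE 0.83). Without ILT3- sample 2 or 3 or ILT3+ sample 2 or 3 the adjusted p was between 0.0557 and 0.108, and with limma voom it was 0.0594. Selp was the only call on group alone among 9 tested selectins and carriers of selectin ligands, of which the block called 3 lower and 1 higher and DESeq2 2 lower and 1 higher. Selplg, the main carrier of P-selectin ligands and named after its values were seen, differed by 0.05 in log2 units (adjusted p = 0.966).

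The ganglioside genes upstream and beside St8sia1 gave 0 calls among 9 tested (edgeR, 3 at an unadjusted p under 0.05, DESeq2 3 lower, limma voom 0). Ugcg, which makes the glucosylceramide from which gangliosides start, was at 67.5, 139 and 97.0 CPM in ILT3- and 29.1, 51.8 and 44.6 in ILT3+ samples. B4galnt1, which turns GM3 and GD3 into GM2 and GD2, was at 409, 299 and 327 CPM and at 235, 185 and 170. Neither gene's groups overlapped, and the log2 fold changes were -1.27 (adjusted p = 0.105 on group alone and 0.00811 with the block, SE 0.32) and -0.81 (adjusted p = 0.107 on group alone and 0.0118 with the block, SE 0.21). The block also called Gm2a, the GM2 activator protein of ganglioside breakdown, in the other direction, with a log2 fold change of 0.68 (adjusted p = 0.0295) beside 0.74 on group alone (adjusted p = 0.463). Its groups overlapped, and it was named after its values were seen. The supply of sialic acid gave 0 calls among 5 tested genes, the sialidases 0 of 2 and N-glycan trimming 0 of 9, with no gene at an unadjusted p under 0.05 in edgeR and 0 calls by DESeq2 and limma voom. Slc35a1, the transporter of activated sialic acid, had a log2 fold change of 0.28 (adjusted p = 0.800) and the sialidase Neu1 one of -0.30 (adjusted p = 0.712). The 19 genes of nucleotide sugar and sulfate donor supply gave 0 calls by any of the 3 tools and 1 at an unadjusted p under 0.05. This was Papss1, which makes the sulfate donor, with a log2 fold change of -0.81 (adjusted p = 0.183, SE 0.25). The 3 tested genes C1galt1, C1galt1c1 and B3galt5 gave 0 calls by the same tools and 1 at an unadjusted p under 0.05. This was C1galt1, the core 1 synthase, with a log2 fold change of -0.79 (adjusted p = 0.297, SE 0.30). Among 3 tested sialic acid receptors edgeR called 0, with 1 at an unadjusted p under 0.05, and DESeq2 and limma voom called 1 higher. That gene, Siglecg, known from B cells, had 0 reads in ILT3- and 100 in ILT3+ samples (adjusted p = 0.0542 in edgeR on group alone and 0.0409 with the block). Siglecg passed the filter through the ILT3+ libraries only.

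**Figure D4:**
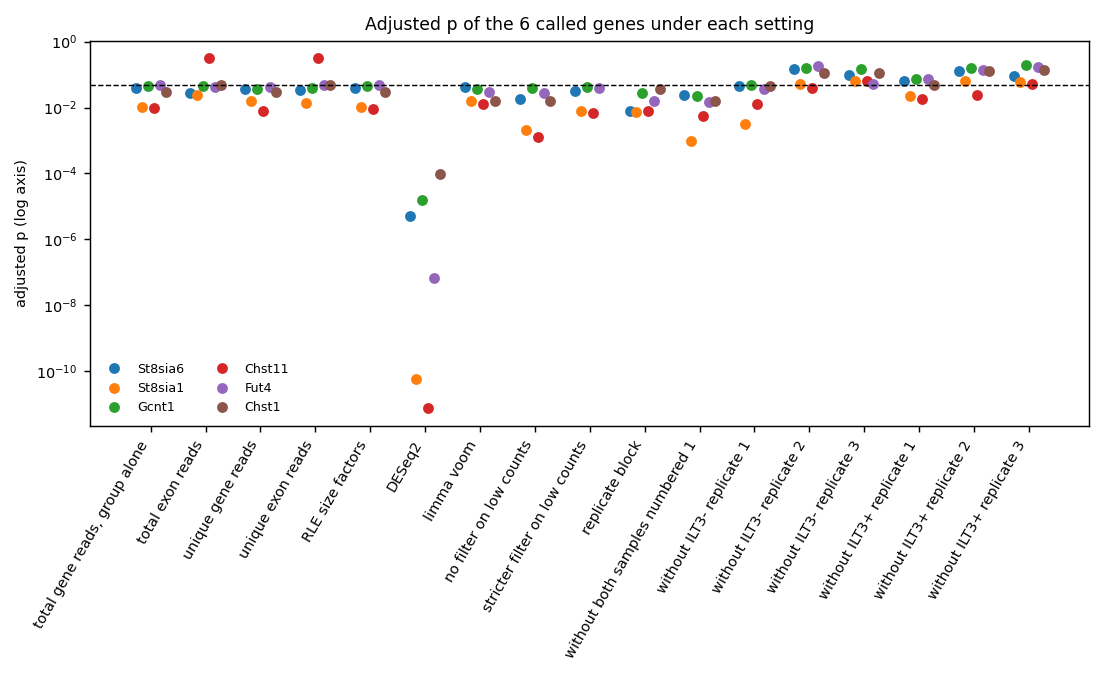
Adjusted p (y axis, log scale) of the 6 called genes under the reported fit and 16 alternatives (x axis), with the dashed line at 0.05. All 6 lie below the line in 8 alternatives, and all 6 lie above it without ILT3- sample 3 or ILT3+ sample 3.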

How the data were processed

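Total RNA of 6 sorted samples was amplified with SmartSeq V2 and made into Nextera XT libraries, per the labels' protocols. The authors deposited 1 table of read counts per sample, whose columns, per the file headers, give total and unique reads over each gene and over its exons and introns. The submitters' processing notes name the build GRCm38. For the aligner, the counter, the annotation and strand, the answer is the same: not given in the sources used here. Reads can be shared by genes that overlap or have near-identical copies, and 46 of the 91 members overlap another gene model.

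Total gene reads were tested with edgeR 4.0.16 in R 4.3.3 (TMM factors, filter at minimum count 10 and total 15, robust quasi-likelihood fit on group alone, Benjamini-Hochberg adjustment over all tested genes at 0.05). CPM values use TMM-scaled libraries. Exon RPKM was computed from deposited exon counts and exon lengths. Alternatives were exon and unique reads, RLE factors, DESeq2 1.42.0, voom in limma 3.58.1, other filters, the sample number as a block, and leaving out samples. The script was checked on simulated counts. The limit that 0 reads allow covers counting error only, while edgeR's 95% intervals also hold the spread between samples.

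No 2 libraries agreed within sampling noise: over genes with 20 or more reads, chi-square divided by its degrees of freedom was 18.3 to 128. Same-numbered samples deviated together from their group means (correlations of 0.45, 0.30 and 0.32 on log2 CPM plus 1), so the numbers were taken to pair them. Between different numbers the correlations were -0.36 to 0.20, positive where number 2 of ILT3- was set against number 3 of ILT3+ (0.14) and where 3 of ILT3- was set against 2 of ILT3+ (0.20), so samples 2 and 3 are told apart less clearly than sample 1. The labels do not say what a number marks.

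Members and lists were chosen with earlier results of these data known. The text names members called in any of 3 fits (group alone, exon reads, block) or with an unadjusted p under 0.05, the 2 of highest exon RPKM per class, and per pathway list the called genes and up to 2 further by smallest p. Others are said to be named after their values were seen. One gene that this rule names is not reported here. Of the 189 symbols on the lists, 183 matched a gene name in the files, 3 were matched by RefSeq synonyms and 3 were not matched. RefSeq promoter windows were found for 66 of the 91 members.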

Additional observations from a re-analysis of the deposited data

How the results depend on the processing

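The 4 members called higher became 10 with DESeq2 (beside 5.09% of all tested genes called higher), 8 without both samples numbered 1, and 0 to 4 when 1 library was left out. The 2 called lower became 4 with DESeq2 (all tested genes 1.85%) and 6 with the replicate block (all tested genes 2.62%). They became 4 without both samples numbered 1, and 0 to 2 when 1 library was left out. For the fits that leave out samples, calls over all genes were not split by direction. Over all genes 316 calls became 204 on unique exon reads, 951 with DESeq2, 932 with the replicate block, 786 without both samples numbered 1, and 31 to 322 when 1 library was left out. The low counts came without ILT3- sample 2 (67) or 3 (31) and ILT3+ sample 2 (53) or 3 (57). The replicate block changed no call of the 6 members and added 6. The 6 called members kept their direction under all alternatives that gave a value, and their calls held in 10 to 12 of 15 or 16.

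Of 849 alternative values over 54 named genes, 752 kept direction and side of the threshold, 40 lost a call, 40 gained one and 17 changed sign. None of the genes that changed sign was called. Without both samples numbered 1, values were -0.10 for St3gal1, -0.032 for St6galnac3, -0.011 for B3gnt1 and 0.50 for B4galt7, and without a filter B4galt7 was at 0.040. When 1 library was left out, St3gal1 ranged from -0.067 to 0.40, St6galnac3 from -0.17 to 0.41, St8sia4 from -0.060 to 0.12, B4galt7 from -0.28 to 0.31, the sialidase Neu3 from -0.036 to 0.45 and the galactosyltransferase B3galt5 from -0.31 to 1.30. The cause was not tested. With 3 samples a group and 9334370 to 13648274 reads per library, members under the filter could not be compared.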
